A study of Mus musculus with 8 samples.

Results

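Neutrophil granule and maturation genes were followed in spleen B cells of mice labelled as a B cell knockout of Jmjd1c, a gene of the JmjC histone demethylase family, and of wild-type mice. The set held 36 genes of the 55401 gene rows counted in each library, and its members were chosen by symbol to cover the proteins of neutrophil granules and the receptors of mature neutrophils. The choice was made with earlier results of these data known. All libraries came from C57BL/6 mice, and total RNA was sequenced in 4 groups of 2 libraries. The groups were Jmjd1c B KO germinal center B cells, WT germinal center B cells, Jmjd1c B KO activated B cells and WT activated B cells (KO and WT below). Germinal center B cells were sorted by FACS. Activated B cells were enriched from the spleen with PanB biotin and streptavidin beads and then activated, so that they did not pass through the same sort. The activating agent, the Cre driver, the deleted exons, the age of the mice and whether the 2 libraries of a group came from separate mice are not given in the labels used here. Without separate mice, p-values would measure the spread between libraries alone, which may be technical.

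Neutrophils make their granule proteins in an order during maturation in the bone marrow. Serine proteases and myeloperoxidase of the primary granules come first, the antimicrobial proteins of the secondary granules follow under the transcription factor C/EBP epsilon, and gelatinases of the tertiary granules and the chemotactic receptors come last. In the spleen these transcripts serve as markers of neutrophils and their precursors, although some of them, such as Anxa1 and Adam8, are also made by other immune cells. The 36 genes fall into 4 primary granule genes, the transcription factor Cebpe, 13 secondary granule genes, 4 tertiary granule and surface protease genes, 6 genes for cytosolic proteins and lipid mediators, and 8 genes for receptors and surface proteins. Retnlg, which encodes a secreted protein, is counted in the last group.

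The start regions of these genes are known for binding sites of C/EBP factors and of PU.1, and promoter windows from 250 bases before to 50 bases after the start were read from RefSeq (GRCm38.p6) for the 29 members listed there. The letters TTGCNNAA, a C/EBP motif, stood on either strand in 10 of the 29 members (34.5%) and in 12.2% of the 27025 genes with a window. The letters GAGGAAGT, a PU.1 motif, stood on either strand in 8 of the 29 members (27.6%) and in 3.69% of all genes. Ly6g and Mmp8 held both. The motif matches do not overlap in the 4 regions printed here, and a match is a description, not a site. The 250 bases before the start are given for a pair of primary and a pair of secondary granule genes whose levels are described below, 5′ to 3′ on the plus strand, with the motif matches in capitals. They lie at chr10:79886062-79886311 for Elane, chr10:79879417-79879666 for Prtn3, chr9:110419558-110419807 for Ngp and chr9:111019042-111019291 for Ltf. The PU.1 letters began 85 bases before the start in Elane and 95 bases before it in Prtn3. The C/EBP letters began 138 and 11 bases before the start in Ngp and 75 bases before it in Ltf. The starts are those of RefSeq, and in all 4 genes they lie inside the gene span of the annotation (GENCODE M21, GRCm38).
Elane: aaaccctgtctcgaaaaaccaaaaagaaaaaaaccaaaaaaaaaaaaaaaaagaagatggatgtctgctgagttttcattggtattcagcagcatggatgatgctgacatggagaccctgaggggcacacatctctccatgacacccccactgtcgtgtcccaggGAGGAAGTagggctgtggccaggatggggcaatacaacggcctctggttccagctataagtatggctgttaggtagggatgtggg
Prtn3: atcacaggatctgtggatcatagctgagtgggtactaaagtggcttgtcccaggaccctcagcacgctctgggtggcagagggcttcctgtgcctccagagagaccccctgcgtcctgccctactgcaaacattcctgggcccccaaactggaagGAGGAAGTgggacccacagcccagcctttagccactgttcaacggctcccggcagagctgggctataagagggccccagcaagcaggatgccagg
Ngp: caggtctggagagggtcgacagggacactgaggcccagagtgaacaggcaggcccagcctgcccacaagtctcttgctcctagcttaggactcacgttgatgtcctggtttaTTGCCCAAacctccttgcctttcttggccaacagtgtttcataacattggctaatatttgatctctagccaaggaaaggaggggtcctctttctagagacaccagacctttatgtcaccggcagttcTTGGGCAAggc
Ltf: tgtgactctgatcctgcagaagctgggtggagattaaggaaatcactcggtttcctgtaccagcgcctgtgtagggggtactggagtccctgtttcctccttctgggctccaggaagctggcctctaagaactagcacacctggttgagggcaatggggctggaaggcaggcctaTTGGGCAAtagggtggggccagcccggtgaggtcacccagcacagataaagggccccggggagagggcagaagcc

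Libraries held 8777425 to 11414559 counts on genes, so a gene at 1 CPM (a count per 1000000 counts on genes) rests on 8.78 to 11.4 counts in a library. CPM values below were scaled once over all 8 libraries. Jmjd1c RNA was lower in KO than in WT in both cell types and was counted in every KO library. It stood at 136 and 153 CPM in KO against 274 and 282 CPM in WT activated B cells (log2 fold change -0.94, SE 0.06, edgeR adjusted p = 1.81e-11). Germinal center B cells had it at 163 and 158 CPM in KO against 194 and 178 CPM in WT (log2 fold change -0.20, SE 0.04, edgeR adjusted p = 1.66e-05). The 5 general B cell markers summed to 5680 to 7200 CPM in all 8 libraries. The 6 germinal center markers summed to 1290 and 1280 CPM in KO and 2510 and 2490 CPM in WT germinal center B cells, and to 141 to 151 CPM in the activated B cell libraries.

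Counts of the 36 genes lay almost wholly in the activated B cell libraries. All 36 had more than 3 counts over the libraries of each activated group. In germinal center B cells 12 members in KO and 9 in WT had more than 3 counts over both libraries, and 18 in KO and 24 in WT had none. Summed over the set, activated B cells held 3290 and 2760 CPM in KO against 907 and 810 CPM in WT, and germinal center B cells held 28.5 and 29.4 CPM in KO against 10.8 and 16.8 CPM in WT. As a share of all counts on genes, the set took 0.345% and 0.29% in KO against 0.0955% and 0.086% in WT activated B cells. KO and WT libraries did not overlap in either cell type. In bulk RNA, more cells of a type and more RNA per cell cannot be told apart, which holds for every level given here.

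**Figure D1:**
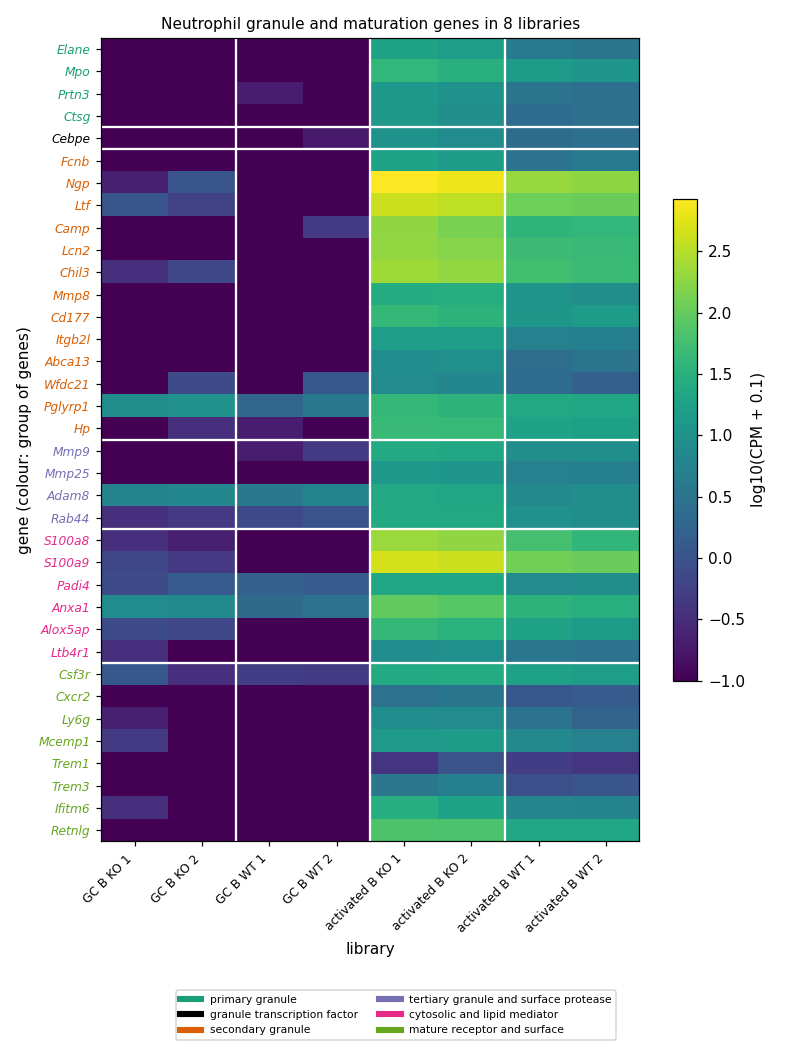
Levels of the 36 neutrophil granule and maturation genes in the 8 libraries, 1 row per gene, with the color giving CPM on a log10 scale and the gene name's color its group. In activated B cells both KO libraries are above both WT libraries for 35 genes, and most germinal center values are at or near 0.

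The comparison of KO with WT activated B cells addresses how the set differs with the Jmjd1c B KO. Transcripts of every granule stage were higher in KO. Of the 36 genes, 35 were tested and all 35 rose, against 4.85% of the 14110 genes tested that were higher at an edgeR adjusted p under 0.05. The median log2 fold change of the 35 was 1.64, with a range of 0.64 to 2.26, while the median over all tested genes was 0.00. Both KO libraries lay above both WT libraries for the same 35 genes, against 24.2% of all tested genes. Over 2-fold higher and past the test were 33 of the members and 214 of all tested genes (1.52%). Since the members were chosen with earlier results of these data known, these shares describe the set and are no independent test. The 36th gene, Trem1, an amplifier of inflammatory signals, had 3 and 9 counts in KO and 4 and 3 counts in WT and was not tested.

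The 4 primary granule genes encode enzymes that kill microbes or cleave their proteins. Elane, neutrophil elastase, stood at 18.6 and 15.2 CPM in KO against 3.91 and 3.26 CPM in WT activated B cells (log2 fold change 2.24, SE 0.18, edgeR adjusted p = 3.29e-09). Its neighbor on chromosome 10, Prtn3 or proteinase 3, stood at 12.4 and 10.1 CPM in KO against 3.19 and 2.67 CPM in WT (log2 fold change 1.94, SE 0.21). These are the genes whose start regions with PU.1 letters are printed above, and neither overlapped between the genotypes. Ctsg, cathepsin G, stood at 12.4 and 8.77 CPM in KO against 2.27 and 2.77 CPM in WT (log2 fold change 2.06, SE 0.23). Mpo, myeloperoxidase, was the most counted of the 4, at 40.5 and 30.7 CPM in KO against 13.8 and 11.3 CPM in WT (log2 fold change 1.51, SE 0.13). All 4 passed the test, with a median log2 fold change of 2.0. The strand setting is not given, and 15% of the exon length of Mpo and 9.18% of that of Prtn3 overlap opposite-strand exons, so that these values are uncertain. Cebpe, the transcription factor that drives secondary granule genes, stood at 10.2 and 7.86 CPM in KO against 2.37 and 2.67 CPM in WT (log2 fold change 1.84, SE 0.23, edgeR adjusted p = 4.69e-06).

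The 13 secondary granule genes made up most of the counts of the set, and all 13 rose in KO, with a median log2 fold change of 1.78. Ngp, neutrophilic granule protein, was the most counted member, at 854 and 676 CPM in KO against 209 and 184 CPM in WT activated B cells (765 ± 126 against 197 ± 17.4 CPM, mean ± SD, n = 2 each, log2 fold change 1.96, SE 0.08, edgeR adjusted p = 2.05e-15). Ltf, the iron-binding lactoferrin, stood at 417 and 353 CPM in KO against 115 and 110 CPM in WT (log2 fold change 1.78, SE 0.07, edgeR adjusted p = 7.71e-16). Both carry C/EBP letters in the start regions printed above, lie on chromosome 9 (Ngp at chr9:110419747-110423012, Ltf at chr9:111019271-111042767, GRCm38) and were far apart between genotypes relative to the spread within each. Lcn2, lipocalin 2, which binds bacterial siderophores, stood at 194 and 164 CPM in KO against 49.4 and 44.9 CPM in WT (log2 fold change 1.93, SE 0.08). Camp, the cathelicidin antimicrobial peptide, stood at 189 and 139 CPM in KO against 37.5 and 40.1 CPM in WT (log2 fold change 2.09, SE 0.10). Chil3, a chitinase-like lectin, stood at 234 and 197 CPM in KO against 55 and 47.5 CPM in WT (log2 fold change 2.08, SE 0.08). In none of these 5 genes did a WT library come near a KO library.

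The other secondary granule genes were counted less but moved the same way. Fcnb, ficolin B, a pattern recognition lectin, had the highest fold change of the set, at 19.2 and 14.6 CPM in KO against 3.09 and 3.96 CPM in WT activated B cells (log2 fold change 2.26, SE 0.19, edgeR adjusted p = 6.54e-09). Wfdc21 stood at 7.66 and 6.45 CPM in KO against 2.27 and 1.48 CPM in WT (log2 fold change 1.91, SE 0.27). Both lay clear of WT in each KO library. Itgb2l, a beta integrin-like surface protein, stood at 16.1 and 15.5 CPM in KO against 5.05 and 4.85 CPM in WT (log2 fold change 1.68, SE 0.16). Abca13, a transporter of the ABC family, stood at 8.48 and 9.17 CPM in KO against 2.47 and 3.17 CPM in WT (log2 fold change 1.64, SE 0.22). Cd177, a surface glycoprotein of neutrophils, stood at 41.7 and 35.1 CPM in KO against 11.8 and 14.7 CPM in WT (log2 fold change 1.53, SE 0.12). These 3 genes encode membrane proteins, and their groups did not overlap. Mmp8, neutrophil collagenase, stood at 26.9 and 27.7 CPM in KO against 10.7 and 8.61 CPM in WT (log2 fold change 1.5, SE 0.13). Hp, haptoglobin, stood at 46.3 and 42.4 CPM in KO against 18.9 and 17.3 CPM in WT (log2 fold change 1.30, SE 0.10). Pglyrp1, a protein that binds bacterial peptidoglycan, stood at 41.8 and 34.3 CPM in KO against 24.1 and 21.7 CPM in WT (log2 fold change 0.74, SE 0.10, edgeR adjusted p = 2.56e-05). Pglyrp1 had the smallest fold change of the secondary granule genes and was one of the 2 called members under 2-fold.

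**Figure D2:**
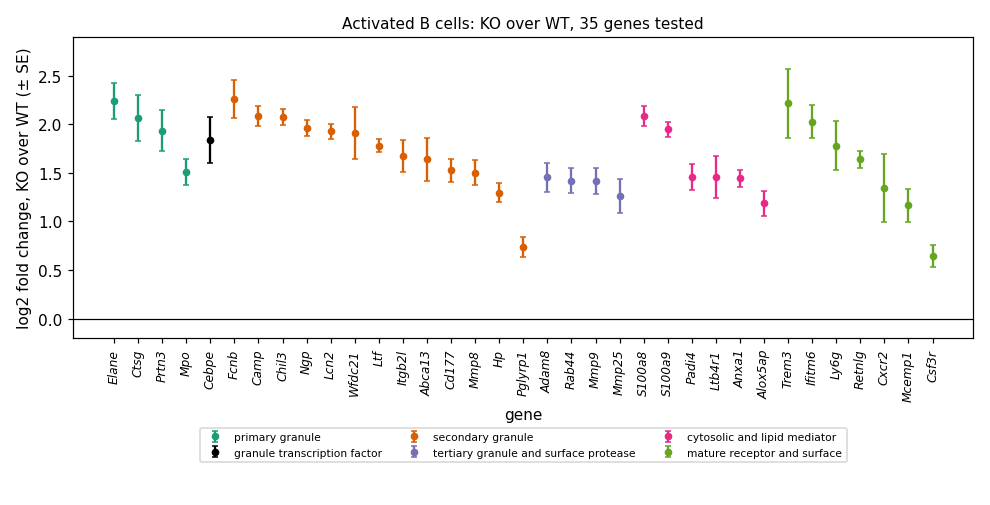
Log2 fold change of KO over WT activated B cells for the 35 tested members by granule stage, with bars of 1 SE, from edgeR on 2 libraries per group. Every point is above 0, from 0.64 for Csf3r to 2.26 for Fcnb.

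Tertiary granules carry gelatinase and related proteases to the cell surface, and all 4 genes of this stage rose, with a median log2 fold change of 1.42. Mmp9, gelatinase B, stood at 25.6 and 21.8 CPM in KO against 8.76 and 9 CPM in WT activated B cells (log2 fold change 1.42, SE 0.14, edgeR adjusted p = 4.54e-08). Mmp25, a membrane-bound metalloprotease, stood at 12.6 and 11.4 CPM in KO against 5.05 and 4.95 CPM in WT (log2 fold change 1.26, SE 0.18). For both genes the WT replicates lay close together and below both KO replicates. Adam8, a membrane-bound protease, stood at 23.1 and 20.3 CPM in KO against 7 and 8.8 CPM in WT (log2 fold change 1.45, SE 0.15). Rab44, a large GTPase of the Rab family, stood at 24.7 and 24.2 CPM in KO against 9.68 and 8.61 CPM in WT (log2 fold change 1.42, SE 0.13). The 4 fold changes lay between 1.26 and 1.45, the narrowest range of the stages with more than 1 gene.

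The 6 cytosolic and lipid mediator genes all rose, with a median log2 fold change of 1.46. S100a8 and S100a9 encode the subunits of calprotectin, a calcium-binding complex that sequesters metal ions, and lie next to each other on chromosome 3. S100a9 stood at 483 and 412 CPM in KO against 125 and 107 CPM in WT activated B cells (447 ± 50.1 against 116 ± 12.9 CPM, mean ± SD, n = 2 each, log2 fold change 1.95, SE 0.07, edgeR adjusted p = 6.81e-16). S100a8 stood at 220 and 192 CPM in KO against 58.7 and 38.9 CPM in WT (log2 fold change 2.09, SE 0.10). Both KO libraries of each lay far above WT. Anxa1, annexin A1, which dampens neutrophil recruitment, stood at 92.4 and 81.3 CPM in KO against 34.6 and 29.4 CPM in WT (log2 fold change 1.44, SE 0.09). Padi4, the enzyme that citrullinates histones, stood at 22.7 and 22.8 CPM in KO against 7.73 and 8.8 CPM in WT (log2 fold change 1.46, SE 0.13). These 2 did not overlap between the groups. Alox5ap, which presents arachidonic acid to 5-lipoxygenase, stood at 41.3 and 32 CPM in KO against 18.2 and 14 CPM in WT (log2 fold change 1.19, SE 0.13). Ltb4r1, the receptor for leukotriene B4, stood at 8.48 and 9.27 CPM in KO against 3.4 and 3.07 CPM in WT (log2 fold change 1.46, SE 0.21). For Alox5ap, 13.3% of the exon length overlaps opposite-strand exons, so its values are uncertain.

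Receptors and surface proteins of mature neutrophils held both the smallest and one of the largest fold changes. Csf3r, the receptor for the growth factor G-CSF, stood at 25.6 and 26.3 CPM in KO against 17.4 and 15.9 CPM in WT activated B cells (log2 fold change 0.64, SE 0.11, edgeR adjusted p = 0.000314). Cxcr2, the receptor through which chemokines draw neutrophils out of the marrow, stood at 2.86 and 3.32 CPM in KO against 1.13 and 1.29 CPM in WT (log2 fold change 1.35, SE 0.35, edgeR adjusted p = 0.0181). Its call ended under DESeq2 (adjusted p = 0.494) and when any 1 of the 4 libraries was left out. Without KO replicate 1 or 2 its edgeR adjusted p was 0.0527 or 0.129, and without WT replicate 1 or 2 it was 0.108 or 0.0713. Ly6g, the surface antigen used to sort neutrophils, stood at 8.48 and 7.86 CPM in KO against 3.09 and 1.68 CPM in WT (log2 fold change 1.78, SE 0.25). Trem3, a receptor of the TREM family, stood at 3.58 and 4.94 CPM in KO against 0.824 and 0.989 CPM in WT (log2 fold change 2.22, SE 0.36, edgeR adjusted p = 0.000138), and it passed the filter on low counts only through KO. The groups did not overlap for any of these 4 genes. Retnlg, a resistin-like secreted protein, stood at 68.3 and 64.6 CPM in KO against 22.5 and 20.3 CPM in WT (log2 fold change 1.64, SE 0.09). Ifitm6, an interferon-induced transmembrane protein, stood at 27.6 and 19.3 CPM in KO against 5.97 and 5.54 CPM in WT (log2 fold change 2.03, SE 0.17). Mcemp1, a membrane protein of mast cells and myeloid cells, stood at 13.1 and 14.1 CPM in KO against 7 and 5.14 CPM in WT (log2 fold change 1.17, SE 0.17). All 7 tested genes of this group were higher in both KO libraries. Ly6g, Chil3, Ifitm6, Itgb2l, Retnlg, Trem1 and Trem3 belong to families of related genes, among which the counting could have split reads, and are uncertain to that extent.

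Summed by stage, the granule groups differed in level widely but less in their KO to WT ratio. Secondary granule genes summed to 2100 and 1720 CPM in KO against 544 and 503 CPM in WT activated B cells, a ratio of 3.64 between means. Cytosolic and lipid mediator genes summed to 868 and 750 CPM in KO against 248 and 201 CPM in WT, a ratio of 3.60, and primary granule genes to 83.8 and 64.8 CPM in KO against 23.2 and 20 CPM in WT, a ratio of 3.44. These 3 groups had the highest ratios of the stages with more than 1 gene. Tertiary granule genes summed to 86 and 77.6 CPM in KO against 30.5 and 31.4 CPM in WT, a ratio of 2.65. Receptor and surface genes summed to 150 and 141 CPM in KO against 58.3 and 51.1 CPM in WT, a ratio of 2.66. Transcripts of the receptor and surface group equaled 7.15% and 8.24% of secondary granule transcripts in KO against 10.7% and 10.2% in WT, without overlap. That group includes the secreted Retnlg, at 68.3 and 64.6 CPM in KO against 22.5 and 20.3 CPM in WT. Primary granule transcripts equaled 4% and 3.78% of secondary granule transcripts in KO against 4.26% and 3.97% in WT, with overlap. Differences between stages were not tested.

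Per kilobase of exon, which allows levels to be compared between genes, S100a9 and Ngp led the set in both genotypes. S100a9 had 857 CPM per kilobase in KO against 223 in WT activated B cells, and Ngp had 626 in KO against 161 in WT. S100a8 followed with 297 in KO against 70.3 in WT, and Camp with 217 in KO against 51.2 in WT. Elane had 17.2 CPM per kilobase in KO against 3.65 in WT, and Abca13 0.447 in KO against 0.143 in WT. Within a genotype the replicates also differed in a shared direction. In KO 27 of the 36 members were higher in replicate 1 than in replicate 2, with a median ratio of 1.16 against 0.997 over all genes, and in WT 25 of 36 were, with a median ratio of 1.10 against 1 over all genes.

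**Figure D3:**
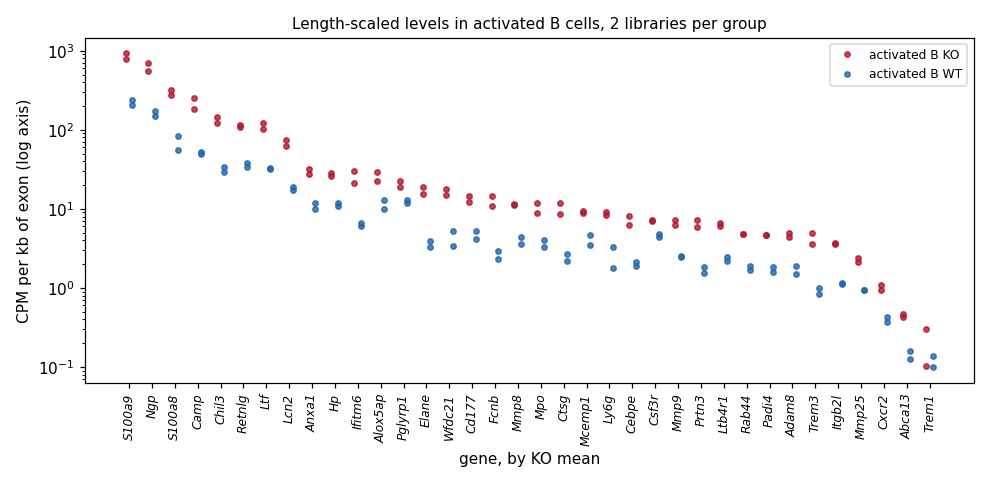
CPM per kilobase of exon on a log axis for the 36 members in the 2 KO and 2 WT activated B cell libraries, 1 point per library, ordered by the KO mean. KO points lie above WT points for every member but Trem1, and the genes span S100a9, at 857 in KO against 223 in WT, to Trem1, at 0.202 in KO against 0.118 in WT.

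Genes of other cell types and of related pathways were read from the same fit. Of 35 other neutrophil genes, 26 were tested in activated B cells, 22 rose in KO, and 4 did not pass, with a median log2 fold change of 0.86. Of 10 transcription factors of myeloid cells 2 rose, among them Cebpa, which acts at the entry into the granulocyte lineage, at 11 and 6.45 CPM in KO against 3.4 and 5.44 CPM in WT (log2 fold change 0.98, edgeR adjusted p = 0.0144), and the other was Spi1, which encodes PU.1 (log2 fold change 0.24). For the NADPH oxidase, the enzyme of the oxidative burst, 3 of 7 genes rose, with a median log2 fold change of 0.14. For leukotriene synthesis 3 of 4 tested genes rose, with a median of 0.98, and for neutrophil adhesion 5 of 8 rose, with a median of 0.21.

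Markers of some other blood cells were also higher in KO activated B cells, where 4.85% of all tested genes were called higher. Median log2 fold changes were 1.37 for eosinophil, basophil and mast cell genes, 0.71 for erythroid genes and 0.44 for monocyte and macrophage genes. The 35 tested members had a median of 1.64. For eosinophils, basophils and mast cells 10 of 11 tested genes rose in KO, and the list summed to 293 and 273 CPM in KO against 116 and 111 CPM in WT. Among them Prg2, the major basic protein of eosinophil granules, stood at 112 and 93.8 CPM in KO against 31.7 and 34.2 CPM in WT. Il5ra held 83.6 and 84.3 CPM of the list's sum in KO and 46.4 and 41.5 CPM in WT. For erythroid cells 7 of 9 tested genes rose, with sums of 1170 and 975 CPM in KO against 673 and 666 CPM in WT. For monocytes and macrophages 7 of 13 tested genes rose, with sums of 884 and 822 CPM in KO against 588 and 582 CPM in WT. Mpeg1 alone held 303 and 304 CPM of these sums in KO and 226 and 221 CPM in WT. Of 9 tested T cell genes none passed with edgeR or DESeq2, while 3 had an unadjusted edgeR p under 0.05, and the list summed to 87.3 and 82.3 CPM in KO against 70.6 and 75.3 CPM in WT. Lck held 50.8 and 48.3 CPM of this sum in KO and 44.8 and 46.8 CPM in WT. It also stood at 78 to 90.9 CPM in the sorted germinal center B cells, so the sum does not measure T cells alone. Of 5 B cell genes none passed with edgeR, 3 had an unadjusted p under 0.05 and 1 passed with DESeq2, and the list summed to 5850 and 5680 CPM in KO against 5900 and 5790 CPM in WT. The 10 defining neutrophil markers, all of them members, summed to 2260 and 1860 CPM in KO against 585 and 514 CPM in WT, and none of them was at 0 in an activated library. The part of other cells in the higher granule transcripts was not tested.

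**Figure D4:**
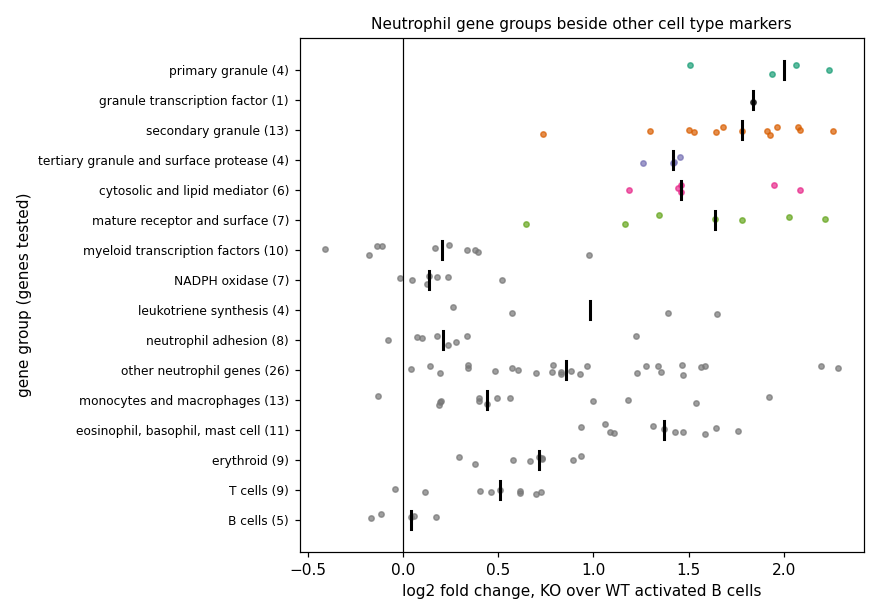
Log2 fold changes of KO over WT activated B cells for the tested genes of the granule stages and of the other lists, 1 point per gene. A black line marks each list's median. The germinal center B cell list is not drawn: its median was -1.19, with 3 of 6 tested genes lower and none higher. Granule stages have medians of 1.42 to 2.0, eosinophil, basophil and mast cell genes 1.37, other neutrophil genes 0.86, erythroid genes 0.71 and B cell genes 0.04.

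In germinal center B cells few of the genes were counted enough to compare KO with WT. Of the 36 members 4 passed the filter on low counts, and 2 of them rose in KO, against 25.1% of the 13350 genes tested that were higher. Pglyrp1 stood at 8.76 and 9.63 CPM in KO against 1.89 and 3.73 CPM in WT germinal center B cells (log2 fold change 1.68, SE 0.23, edgeR adjusted p = 6.12e-12). Anxa1 stood at 8.03 and 7.37 CPM in KO against 2.2 and 2.91 CPM in WT (log2 fold change 1.58, SE 0.25, edgeR adjusted p = 2.27e-09). Both lay clear of WT in each KO library. Adam8 had 5.72 and 6.42 CPM in KO against 3.77 and 5.65 CPM in WT (log2 fold change 0.35, SE 0.23, edgeR adjusted p = 0.202), without overlap, and did not pass the test. Padi4 had 0.73 and 1.31 CPM in KO against 1.57 and 1.27 CPM in WT (log2 fold change -0.46, SE 0.48, edgeR adjusted p = 0.443), and these overlapped. Libraries did not overlap, with KO higher, for 3 of the 4 members and for 35.7% of all tested genes.

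Below the filter, 6 members had counts in both KO libraries and none in either WT library of germinal center B cells. How many of all genes show this pattern was not counted, so it cannot be read as particular to the set. Ngp had 1 and 8 counts in KO, Ltf 8 and 4, Chil3 2 and 5, S100a8 2 and 1, S100a9 5 and 3, and Alox5ap 6 and 5, against 0 and 0 counts in WT for each. With WT set to a floor of 3 counts over its libraries, KO stood 4.94-fold higher for Ltf and 4.52-fold higher for Alox5ap. KO stood 3.70-fold higher for Ngp, 3.29-fold for S100a9 and 2.88-fold for Chil3. These folds leave out the counting error of the few KO counts, so they are not lower bounds. S100a8 was at the floor in both groups. An edgeR fit with no filter gave adjusted p = 0.00287 for Ltf, 0.00548 for Alox5ap, 0.0181 for Ngp, 0.0319 for S100a9 and 0.0551 for Chil3. That fit called 6469 genes in all, 51.3% of them higher in KO. Other genes went the opposite way or were split between libraries. Camp had 0 and 0 counts in KO against 0 and 4 in WT, Mmp9 had 0 and 0 in KO against 1 and 4 in WT, and Rab44 had 2 and 3 in KO against 6 and 10 in WT. Wfdc21 had 0 and 6 counts in KO against 0 and 12 in WT, so that 1 library of each genotype held all of them, and Csf3r had 9 and 2 in KO against 4 and 4 in WT. With no filter their edgeR adjusted p ran from 0.244 for Mmp9 to 0.65 for Wfdc21. A remainder of 7 genes (Prtn3, Cebpe, Hp, Ltb4r1, Ly6g, Mcemp1 and Ifitm6) had 3 or fewer counts in each genotype. The 14 others had no count in any of the 4 libraries, among them Elane, Mpo, Lcn2, Mmp8, Cd177, Retnlg and Cxcr2, and a count of 0 over a group allows up to 0.18 CPM in KO and 0.146 CPM in WT.

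The remaining members without a count in germinal center B cells were Ctsg, Fcnb, Itgb2l, Abca13, Mmp25, Trem1 and Trem3. Without Pglyrp1, Adam8 and Anxa1 the set summed to 5.96 and 5.94 CPM in KO against 2.93 and 4.46 CPM in WT germinal center B cells. Markers of some other cells were higher in KO here as well, where 25.1% of all tested genes were called higher. Monocyte and macrophage genes summed to 151 and 162 CPM in KO against 50.8 and 49.1 CPM in WT, with 10 of 12 tested genes higher, and erythroid genes to 68.7 and 83.4 CPM in KO against 9.53 and 12.2 CPM in WT, with 7 of 7 higher. Of the monocyte and macrophage sum, Mpeg1 alone held 72.4 and 81.6 CPM in KO and 16.1 and 16.7 CPM in WT. T cell genes summed to 98.6 and 92.6 CPM in KO against 92.4 and 93.5 CPM in WT, with overlap. Lck held most of that sum, and 3 of 4 tested T cell genes were higher. The 10 defining neutrophil markers summed to 3.16 and 2.14 CPM in KO against 0.419 and 0.728 CPM in WT, and Mpo, Elane and Cxcr2 among them were at 0 in all 4 libraries. The part of other cells in the higher Pglyrp1 and Anxa1 was not tested.

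**Figure D5:**
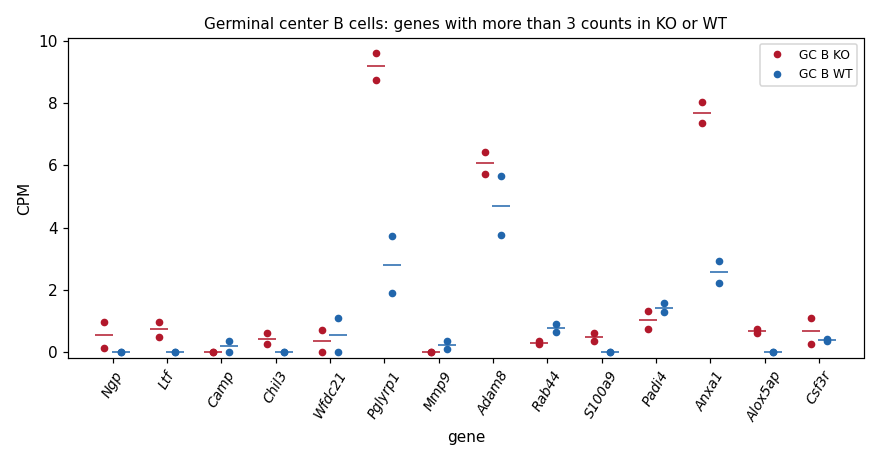
CPM of the 14 members with more than 3 counts in KO or WT germinal center B cells, 1 point per library with a line at the mean, KO to the left of WT. Pglyrp1, Adam8 and Anxa1 stand at 1.89 to 9.63 CPM in all 4 libraries, and the other genes shown lie below 2 CPM.

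Germinal center B cells were also set against activated B cells within each genotype. The granule genes were lower in germinal center B cells in both genotypes. In WT, Ngp was at least 1340-fold lower in germinal center B cells (0 counts over both libraries), S100a9 at least 795-fold and Ltf at least 770-fold. In KO, where these genes had 8 to 12 counts, Ngp was 1410-fold lower (95% counting interval 744 to 3090), S100a9 930-fold (472 to 2160) and Ltf 534-fold (305 to 1030). Lcn2 was at least 991-fold lower in KO and at least 322-fold lower in WT, and Elane at least 93.7-fold lower in KO and at least 24.5-fold lower in WT. Of the tested members 35 of 35 in KO and 34 of 34 in WT were called lower, against 39.5% of all tested genes in KO and 41.8% in WT. This count carries no weight of its own, since 32 members in KO and 30 in WT passed the filter only through the activated libraries, where they were high. The genotypes share no libraries, but the enrichment differs between the cell types, so sorting and cell type cannot be told apart.

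The 7 members with more than 3 counts in each of the 4 groups differed widely in size. Adam8 was lower in germinal center B cells by a log2 fold change of -1.83 in KO (SE 0.16) and -0.74 in WT (SE 0.21, edgeR adjusted p = 0.000698). The WT call for Adam8 ended with DESeq2 (log2 fold change -0.75, adjusted p = 0.0949) and without WT germinal center replicate 1 (-0.48, edgeR adjusted p = 0.0543). Pglyrp1 differed by -2.04 in KO and -3.00 in WT, Anxa1 by -3.49 in KO and -3.64 in WT, and Padi4 by -4.45 in KO and -2.55 in WT. Wfdc21 differed by -4.23 in KO and -1.67 in WT, and the WT call ended with DESeq2 (adjusted p = 0.147), without WT germinal center replicate 1 (edgeR adjusted p = 0.196) and without WT activated replicate 1 (0.0764). Rab44 differed by -6.28 in KO and -3.54 in WT, and Csf3r by -5.26 in KO and -5.38 in WT. Adam8 ran at 5.72 and 6.42 CPM in KO germinal center B cells against 23.1 and 20.3 CPM in KO activated B cells.

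Whether the KO effect differed between the cell types was tested as the KO effect in germinal center B cells minus the KO effect in activated B cells. Of the members 9 passed, 3 of them with a higher effect in germinal center B cells and 6 with a lower one, against 31.2% of the 14992 genes tested in either direction (17.5% higher and 13.8% lower). Only 7 members had more than 3 counts in each of the 4 groups, and 5 of those passed. The effect was higher in germinal center B cells for Pglyrp1 (difference of log2 fold changes 0.94, SE 0.25, edgeR adjusted p = 0.00202). It was lower there for Rab44 (-2.76, SE 0.68, edgeR adjusted p = 0.000679), Padi4 (-1.92, SE 0.47, edgeR adjusted p = 0.000555), Adam8 (-1.10, SE 0.27, edgeR adjusted p = 0.000712) and Wfdc21 (-2.58, SE 0.87, edgeR adjusted p = 0.0158). The call ended for Pglyrp1 without WT germinal center replicate 1 (0.59, edgeR adjusted p = 0.119), for Adam8 without WT germinal center replicate 2 (-0.74, edgeR adjusted p = 0.106), and for Wfdc21 with DESeq2, without KO germinal center replicate 1 (-1.63) and without WT germinal center replicate 2, where it turned to 2.92. Without that last library 3 members passed in all. For Anxa1 the difference was 0.13 (SE 0.25, edgeR adjusted p = 0.75) and for Csf3r it was 0.10 (SE 0.59, edgeR adjusted p = 0.928). The other called genes were Ltf and Alox5ap, with a higher effect, and Camp and Mmp9, with a lower one. Each of these 4 had 3 or fewer counts in a germinal center group, as given above, so that the size of their difference cannot be read from the fit.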

How the data were processed

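The deposited files hold whole-number counts per gene for 8 libraries, and no normalized values were used. The submitters' processing notes name Trimmomatic, DESeq2 and the build mm10, without versions. The labels used here name no aligner or counter and do not say whether strand was used. Summary entries without a gene, among them the 47.2% to 53.9% of reads on no feature, were removed first. Groups and replicate numbers came from the sample titles. Each comparison was fitted over all genes with edgeR 4.0.16 in R 4.3.3 (TMM scaling, filterByExpr, quasi-likelihood F test, Benjamini-Hochberg adjustment over all genes tested), and a gene was called at an adjusted p under 0.05. The filter kept genes above 1.03 to 1.09 CPM in 2 libraries. The SE is the log2 fold change divided by the root of its F statistic. KO was compared with WT from the 4 libraries of a cell type, germinal center with activated B cells from the 4 libraries of a genotype, and the KO effects with each other from all 8 libraries. CPM values use one TMM scaling over 8 libraries, exon lengths come from GENCODE M21, and counting intervals (95%) and floors (3 counts over a group) cover counting error only. A fold set against a floor takes the count of the other group as exact. Scripts were tested on simulated data. Alternatives were RLE size factors, library size only, no filter, at least 10 counts summed, DESeq2 1.42.0, the replicate number as a block, all 8 libraries in 1 fit, and each library left out. Members with a mean of at least 1 CPM in a group or a call are given by library. Of other lists, counts and at most 4 members are given. The members and lists were chosen with earlier results of these data known.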

Additional observations from a re-analysis of the deposited data

Results flagged for a closer look

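The KO effects of 5 members with more than 3 counts in each of the 4 groups differed between germinal center and activated B cells by the edgeR test of the difference. Of the 35 members tested 9 passed in all, against 31.2% of the 14992 genes tested. Members without counts in germinal center B cells could not pass, so these shares cannot say whether the set differed from all genes. Only 7 members had more than 3 counts in each of the 4 groups, and 5 of those passed. With the effect in activated B cells subtracted from that in germinal center B cells, on the log2 scale, the differences were 0.94 for Pglyrp1 (SE 0.25, edgeR adjusted p = 0.00202), -1.10 for Adam8 (SE 0.27, edgeR adjusted p = 0.000712), -1.92 for Padi4 (SE 0.47, edgeR adjusted p = 0.000555), -2.76 for Rab44 (SE 0.68, edgeR adjusted p = 0.000679) and -2.58 for Wfdc21 (SE 0.87, edgeR adjusted p = 0.0158). For Rab44 the germinal center groups hold 5 counts in KO against 16 counts in WT over both libraries, and for Wfdc21 they hold 6 counts in KO against 12 counts in WT. Without WT germinal center replicate 1 the difference for Pglyrp1 was 0.59 (edgeR adjusted p = 0.119). Without WT germinal center replicate 2 that for Adam8 was -0.74 (edgeR adjusted p = 0.106), and that for Wfdc21 turned to 2.92 (edgeR adjusted p = 0.44).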

How the results depend on the processing

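The members called higher in KO activated B cells numbered 34 or 35 under every alternative run, and the gene lost was Cxcr2. In KO germinal center B cells the 2 calls, from 4 members tested, became 6 of 22 with no filter and 4 of 9 with at least 10 counts summed (Ltf and Alox5ap added). With all 8 libraries in 1 fit they were 8 of 35 (7 higher, and Mmp9 lower at an edgeR adjusted p = 0.0454). Over all genes the calls numbered 6698 in the main fit, 6469 with no filter, 6780 with at least 10 counts and 6516 with all 8 libraries. Members called lower in germinal center B cells, set against activated ones, ran from 35 to 36 in KO and from 32 to 36 in WT. With library size only, the median log2 fold change over all genes in these comparisons moved to -0.194 in KO and -0.156 in WT, and the summed members in KO germinal center B cells were 27.0 CPM in place of 28.9. The 9 members whose KO effect differed between cell types numbered 7 with DESeq2, and 3 to 9 with each library left out, the lowest without WT germinal center replicate 2. With each library left out, the single differences of Wfdc21, Anxa1 and Csf3r turned sign: Wfdc21 ran from -7.45 to 2.92 (highest without WT germinal center replicate 2), Anxa1 from -0.025 (without WT germinal center replicate 1) to 0.38, and Csf3r from -1.33 (without KO germinal center replicate 1) to 0.82. For Wfdc21 DESeq2 gave an adjusted p = 0.615. The cause of these changes was not tested. Over all genes, same-numbered libraries did not deviate together (correlations of -0.035 to 0.01 over 14992 genes). These correlations cannot exclude a pairing or a batch that acts on some of the genes. With the replicate number as a block 35 and 2 members were called in activated and germinal center B cells, 9 for the difference, and calls over all genes in activated B cells numbered 1388 with the block, against 885 without it. Without the block, that whole-table count was 465 with no filter and 311 with DESeq2. At germinal center depth, members with 3 or fewer counts in a group give no fold change from the fit.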
